A study of Homo sapiens with 6 samples.

Results

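The 10 genes described here encode the 5 subunits of the transcription factor NF-κB (RELA, RELB, REL, NFKB1 and NFKB2), a pair of IκB inhibitors (NFKBIA and NFKBIE) and 3 genes that NF-κB switches on and that act back on the pathway (TNFAIP3, BIRC3 and TRAF1). They were taken by gene symbol from the deposited count table, which lists 46427 genes, and all 10 were among the 17419 genes that passed the filter on low counts, in both groups of cells. The cells were Hs578T, an established line of triple-negative breast cancer with a mesenchymal character, grown in DMEM with fetal bovine serum. In the control group (shCTRL, 3 libraries) the cells stably carried a control shRNA from a retroviral vector, and in the knockdown group (shCCN3, 3 libraries) they carried CCN3 shRNA #2 from the same vector, against the secreted matricellular protein CCN3. A single CCN3 shRNA was used, so the effect of lower CCN3 cannot be told apart from other effects of that shRNA or of the selection of the line. The study sequenced these cells to look for genes that depend on CCN3, and the question asked here is whether the mRNA of the NF-κB genes differed between shCCN3 and shCTRL cells.

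In resting cells most NF-κB dimers are held in the cytoplasm by IκB proteins. Signals from cytokine and innate immune receptors activate the IκB kinase complex, IκB is degraded, and dimers with a transactivating subunit enter the nucleus and bind κB sites in DNA. Several of the genes switched on in this way encode the inhibitors themselves, which closes a feedback loop, and a separate, slower branch depends on the kinase NIK, which leads to the processing of the NFKB2 precursor into the partner of RELB. In breast cancer the pathway is studied mainly for inflammatory cytokine expression and cell survival.

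Because several members are known NF-κB targets, the DNA just upstream of their start sites is shown. RefSeq on GRCh38.p14 gave 14 windows of 250 bases upstream of an annotated start for 8 of the 10 genes (RELB and NFKBIE had no entry). The windows were searched on both strands for the κB consensus, a 10-base motif that begins with a run of G and ends with a run of C, and for the stricter core GGGANNTTCC, which partly overlaps it. The consensus was found for 6 of the 8 genes (75.0%), against 1715 of 27305 genes in the same table (6.28%) and 970 of the 12597 tested genes that had an entry (7.7%). The core was found for 5 of 8 (62.5%), against 472 of 27305 (1.73%). Counted by window, 7 of 14 member windows held the consensus, against 1828 of 35116 in all (5.21%). Neither RELA, in 2 windows, nor TRAF1, in 3 windows, held a match. A match describes letters in the window and is not evidence of binding, and the members were chosen as known parts of the pathway. The stretches of 30 bases around matches are given 5′ to 3′ on the strand of the gene, with the match in capitals, so that the sites of genes with large, small and no called differences can be set side by side.
NFKB1 (chr4:102501300-102501329, plus strand): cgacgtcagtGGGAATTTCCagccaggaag
NFKB2 (chr10:102394462-102394491, plus strand): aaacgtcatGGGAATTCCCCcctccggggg
NFKB2 (chr10:102395674-102395703, plus strand): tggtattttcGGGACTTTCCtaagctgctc
REL (chr2:60881518-60881547, plus strand): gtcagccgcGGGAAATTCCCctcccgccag
NFKBIA (chr14:35404811-35404840, minus strand): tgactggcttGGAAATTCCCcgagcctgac
TNFAIP3 (chr6:137867188-137867217, plus strand): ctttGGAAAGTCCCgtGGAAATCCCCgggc
BIRC3 (chr11:102317275-102317304, plus strand): tttgggtcatGGAAATCCCCgagtgggttt
BIRC3 (chr11:102317339-102317368, plus strand): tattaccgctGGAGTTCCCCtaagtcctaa

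The matches began 49 bases before the start for NFKB1, 107 and 78 bases before one start and 176 and 21 bases before another for NFKB2 (those at 78 and 176 are not shown), 47 for REL, 81 for NFKBIA, 67 and 55 for TNFAIP3, and 199 and 135 for BIRC3. The longer match runs of REL and of NFKB2 at 107 bases are 2 overlapping matches each. Some starts lie inside another transcript, and GENCODE 29 places all 30 bases of the TNFAIP3 stretch and of the NFKB2 stretch at 107 bases in exons, 27 of the REL stretch, 21 of the NFKB1 stretch and 11 of the other NFKB2 stretch, and none of the NFKBIA and BIRC3 stretches. NFKBIA and BIRC3 are shown with more of their surroundings, since NFKBIA was the member with the smallest difference between the groups and BIRC3 was among those with the largest. The NFKBIA window is whole, and the BIRC3 window is given without its last bases, which GENCODE 29 places in an exon.
NFKBIA (chr14:35404750-35404999, minus strand): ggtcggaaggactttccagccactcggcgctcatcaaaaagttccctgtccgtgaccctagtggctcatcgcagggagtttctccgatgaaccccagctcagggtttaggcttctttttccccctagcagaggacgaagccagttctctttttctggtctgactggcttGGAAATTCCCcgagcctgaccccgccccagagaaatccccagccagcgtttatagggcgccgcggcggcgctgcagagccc
BIRC3 (chr11:102317234-102317449, plus strand): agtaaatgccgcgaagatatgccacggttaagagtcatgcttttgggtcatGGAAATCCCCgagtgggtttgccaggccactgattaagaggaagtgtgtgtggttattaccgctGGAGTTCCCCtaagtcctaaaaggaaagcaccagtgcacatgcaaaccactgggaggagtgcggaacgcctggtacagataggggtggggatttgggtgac

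The 6 libraries held between 56159110 and 68393177 counts, and 3 counts in a library were worth 0.0435 to 0.054 CPM (counts scaled to the library total with TMM factors), which covers counting error only. CCN3 itself was at 103, 102 and 98.1 CPM in the shCTRL libraries and at 47.4, 47.2 and 46.5 CPM in the shCCN3 libraries (log2 fold change, here and below shCCN3 over shCTRL, of -1.10 with a standard error, SE, of 0.055, and an adjusted p of 1.34e-06 from edgeR's quasi-likelihood test). For CCN3 an exact two-sided permutation test over the 6 libraries gave p = 0.1, the smallest that 3 against 3 allows. No library was a copy of another within counting noise, and shCCN3 replicate 2 stood furthest from its group, with a chi-square per degree of freedom of 38.1 and 46.5 against the other shCCN3 libraries and 9.98 between those. The summed level of the mesenchymal markers VIM, FN1, ZEB1 and SPARC was 11000 CPM in shCTRL libraries and 10500 to 10700 CPM in shCCN3 libraries, and that of the epithelial markers EPCAM, CDH1, KRT8 and KRT19 was 17.9 to 21.4 and 13.6 to 14.9 CPM, of which only KRT8 passed the filter. ESR1 did not pass the filter, and PGR averaged 2.86 and 3.80 CPM, so that 1 of the 2 hormone receptor mRNAs was detected. Among leukocyte markers CD3E was at 0 in all libraries, PTPRC averaged 0.0656 and 0.18 CPM and CD14 0.52 and 0.455 CPM in shCTRL and shCCN3 cells, and CD68, which tumour cells also express, averaged 102 and 58.5 CPM. In bulk RNA, a change in the share of cells that express a gene and a change in its level per cell cannot be told apart.

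Of the 10 genes, 7 were higher in shCCN3 cells and none was lower, and 3 were called when shCTRL replicate 2 was left out (NFKBIE, TNFAIP3 and BIRC3). These 7 of 10 stand beside 16.2% of all tested genes called higher, 17.3% called lower and 33.4% called in either direction at an adjusted p under 0.05, so that the transcriptome as a whole moved widely in both directions. The largest differences were in the feedback genes TNFAIP3, BIRC3 and TRAF1, which were 1.69 to 1.95 times as high in shCCN3 cells, followed by the inhibitor gene NFKBIE at 1.4 times. NFKB1, NFKB2 and RELA were higher by smaller amounts, 1.13 to 1.22 times. RELB, REL and NFKBIA did not pass the test. None of the 10 reached a 2-fold difference, which 8.1% of all tested genes did with an adjusted p under 0.05. The median log2 fold change of the 10 was 0.27, and that of all tested genes was 0.01. For 8 of the 10 every shCCN3 library lay above every shCTRL library, as it did for 22.7% of all tested genes, and REL and NFKBIA were the exceptions.

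**Figure D1:**
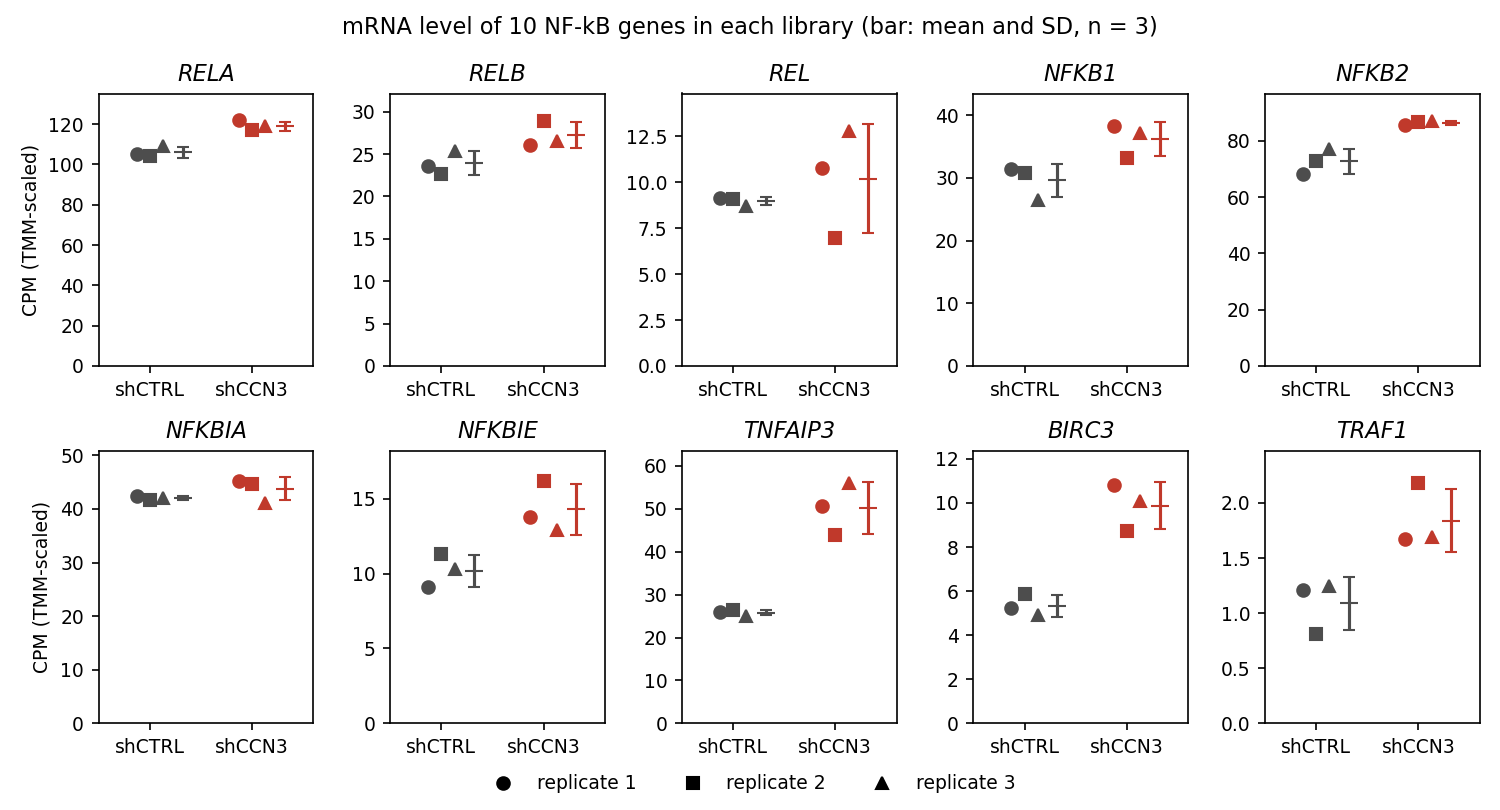
The level of each of the 10 genes in CPM (TMM-scaled, each panel with its own axis from 0) in the 3 shCTRL and the 3 shCCN3 libraries, with the mean and SD beside the points. The groups overlap for REL and NFKBIA, and for every other gene all shCCN3 libraries lie above all shCTRL libraries.

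Among the subunits with a transactivation domain, RELA, which forms the most common NF-κB dimer with the NFKB1 product, was at 105, 104 and 109 CPM in shCTRL libraries and at 122, 117 and 119 CPM in shCCN3 libraries. The groups were separate by a narrow margin. RELA had a log2 fold change of 0.18 (SE 0.054, adjusted p = 0.0332, edgeR's quasi-likelihood test). This call did not survive the loss of a library in 5 of 6 cases, with an adjusted p of up to 0.148 when shCTRL replicate 2 was left out, and it held without shCCN3 replicate 2 (0.0141). The difference itself stayed between 0.16 and 0.20.

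RELB, the subunit of the NIK-dependent branch, was at 23.6, 22.6 and 25.4 CPM in shCTRL libraries and at 26.1, 28.9 and 26.5 CPM in shCCN3 libraries. The 3 knockdown values lay above the 3 control values, yet the difference did not pass the test (log2 fold change 0.19, SE 0.076, adjusted p = 0.0933, edgeR's quasi-likelihood test). REL, the subunit best known from lymphoid cells, was at 9.13, 9.07 and 8.72 CPM in shCTRL libraries and at 10.8, 6.96 and 12.8 CPM in shCCN3 libraries. The shCTRL values were tightly grouped and the shCCN3 values surrounded them, with replicate 2 below and the other two above. For REL the fitted log2 fold change was 0.19 (SE 0.186, adjusted p = 0.485, edgeR's quasi-likelihood test). Without shCCN3 replicate 2 it was 0.40 (adjusted p = 0.00847), and without shCCN3 replicate 3 it was -0.01 (adjusted p = 0.974). The estimate thus depended strongly on which library was left out.

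The other 2 subunits are made as long precursors whose C-terminal ankyrin repeats act like an IκB until they are removed. NFKB1 was at 31.4, 30.8 and 26.5 CPM in shCTRL libraries and at 38.2, 33.1 and 37.1 CPM in shCCN3 libraries. Every knockdown value was above every control value, and the lowest knockdown value was that of replicate 2. NFKB1 differed by 0.29 on the log2 scale (SE 0.088, adjusted p = 0.031, edgeR's quasi-likelihood test), with an adjusted p of 0.117 without shCCN3 replicate 1, 0.0878 without shCCN3 replicate 3, 0.0689 without shCTRL replicate 2 and 0.107 without shCTRL replicate 3. NFKB2 was at 68.3, 72.7 and 77.2 CPM in shCTRL libraries and at 85.7, 86.6 and 87.0 CPM in shCCN3 libraries. Here the knockdown libraries were the tight group, and all lay above the controls. NFKB2 differed by 0.25 on the log2 scale (SE 0.062, adjusted p = 0.0135, edgeR's quasi-likelihood test), and the adjusted p was 0.0592 without shCTRL replicate 1 and 0.0606 without shCTRL replicate 2. The ratio of NFKB2 to NFKB1 counts within a library did not separate the groups (2.48 ± 0.381 in shCTRL and 2.4 ± 0.191 in shCCN3, SD, n = 3 each, exact permutation test, two-sided p = 0.8).

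Of the inhibitor genes, NFKBIE passed the test and NFKBIA did not, a difference between genes that was not itself tested. NFKBIA encodes IκBα, the inhibitor that NF-κB resynthesizes fastest after a stimulus. It was at 42.5, 41.7 and 42.0 CPM in shCTRL libraries and at 45.3, 44.7 and 41.2 CPM in shCCN3 libraries. One knockdown library was below all controls and the other two above them, so the groups overlapped. The log2 fold change of NFKBIA was 0.06 (SE 0.063, adjusted p = 0.537, edgeR's quasi-likelihood test) and lay between 0.03 and 0.10 with each library left out in turn. NFKBIE encodes IκBε, a slower inhibitor that favours dimers of RELA and REL. It was at 9.11, 11.3 and 10.3 CPM in shCTRL libraries and at 13.8, 16.2 and 12.9 CPM in shCCN3 libraries. All knockdown values lay above all control values. Its log2 fold change was 0.48 (SE 0.114, adjusted p = 0.00981, edgeR's quasi-likelihood test), and it was called in all 13 alternative fits.

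The 3 feedback genes showed the widest separation. TNFAIP3 encodes the ubiquitin-editing enzyme A20, which shuts off signalling upstream of the IκB kinases. It was at 25.9, 26.3 and 25.1 CPM in shCTRL libraries and at 50.6, 44.0 and 56.0 CPM in shCCN3 libraries. The lowest knockdown library, replicate 2, was still far above the highest control. The means were 25.8 ± 0.600 and 50.2 ± 6.01 CPM (SD, n = 3 each), a fold of 1.95 and a log2 fold change of 0.96 (SE 0.09, adjusted p = 4.98e-05, edgeR's quasi-likelihood test). Leaving out single libraries moved it between 0.88 and 1.05, the latter without shCCN3 replicate 2.

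BIRC3 encodes cIAP2, a ubiquitin ligase that protects against TNF-induced cell death and takes part in the destruction of NIK. It was at 5.22, 5.89 and 4.92 CPM in shCTRL libraries and at 10.8, 8.75 and 10.1 CPM in shCCN3 libraries. The groups were far apart relative to their spread, and the means were 5.34 ± 0.497 and 9.88 ± 1.06 CPM (SD, n = 3 each). The log2 fold change of BIRC3 was 0.89 (SE 0.116, adjusted p = 0.000371, edgeR's quasi-likelihood test), with a range of 0.82 to 0.97 over the fits that left out a library. Its neighbour and paralog BIRC2, which encodes cIAP1 and was picked for mention after its values were seen, rose from 40.9 ± 4.55 to 60.8 ± 3.28 CPM (log2 fold change 0.57, adjusted p = 0.000944, edgeR's quasi-likelihood test). The ratio of BIRC3 to BIRC2 counts was 0.115, 0.145 and 0.135 in shCTRL and 0.168, 0.151 and 0.167 in shCCN3 libraries. An exact permutation test gave the smallest p possible (two-sided p = 0.1). BIRC3 had the larger log2 fold change and BIRC2 was picked afterwards, so a difference was built into the choice and the p is not read as support.

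TRAF1 encodes an adaptor at TNF receptors that binds the cIAP proteins, and it was the least abundant of the 10. Its raw counts were 83, 51 and 84 in shCTRL libraries and 115, 121 and 108 in shCCN3 libraries, that is 1.21, 0.812 and 1.25 CPM against 1.67, 2.18 and 1.69 CPM. The lowest knockdown library was above the highest control. TRAF1 had a log2 fold change of 0.75 (SE 0.219, adjusted p = 0.0262, edgeR's quasi-likelihood test), with an adjusted p of 0.0901 without shCTRL replicate 2 and 0.0531 without shCCN3 replicate 2. TRAF1 overlaps PHF19 on the same strand without sharing exon bases in GENCODE 29, and PHF19 was at 114 and 123 CPM (log2 fold change 0.11, adjusted p = 0.161, same edgeR test), and the part of PHF19 reads in the TRAF1 counts was not tested.

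Within a library, the ratio of TNFAIP3 to NFKBIA counts compares 2 negative feedback genes at equal depth. Like the other ratios given here, it was not planned. It sets the member with the largest log2 fold change over the one with the smallest, so a difference was built into the choice. TNFAIP3 lies on chromosome 6 (median log2 fold change 0.34) and NFKBIA on chromosome 14 (median 0.06). It was 0.611, 0.630 and 0.598 in shCTRL libraries and 1.12, 0.983 and 1.36 in shCCN3 libraries. TNFAIP3 thus went from fewer to about as many or more counts than NFKBIA, with no overlap between the groups (0.613 ± 0.0162 and 1.15 ± 0.189, SD, n = 3 each). This is a description and no test. The upstream windows of both genes held a κB consensus match.

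Read against the whole transcriptome, 5.32% of tested genes had a higher log2 fold change than TNFAIP3, 5.96% than BIRC3, 7.71% than TRAF1 and 13.1% than NFKBIE. For the subunits that share was between 21.1% (NFKB1) and 29.9% (RELA), and for NFKBIA it was 43.6%. TNFAIP3, BIRC3 and TRAF1 therefore lay in the upper tail and the subunits nearer the middle. NFKBIA, also a negative feedback gene, lay nearest the middle, so the upper tail did not hold every feedback gene. Replicate 2 was the lowest shCCN3 library for 5 of the 10 genes (REL, NFKB1, RELA, TNFAIP3 and BIRC3), and it was the lowest for 42.0% of all tested genes.

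The 10 genes lie on 8 chromosomes of GRCh38.p14, and chromosome 6 stood apart. NFKBIE (chr6:44258166-44265551) and TNFAIP3 (chr6:137866349-137883312) are both on chromosome 6, whose 891 tested genes had a median log2 fold change of 0.34, while the medians of the members' other chromosomes lay between -0.07 (chromosome 9, TRAF1) and 0.06 (chromosome 14, NFKBIA). The median of the 24 tested genes nearest to NFKBIE was 0.42, close to the 0.48 of NFKBIE itself, and NFKBIE was 0.14 above its chromosome's median. The median around TNFAIP3 was 0.36, and TNFAIP3 was 0.62 above that of its chromosome. BIRC3 (chr11:102317484-102339403) was 0.87 above the median of chromosome 11 and its 24 nearest genes had a median of 0.22, and TRAF1 (chr9:120902393-120929171) was 0.82 above that of chromosome 9. For the subunits NFKB1 (chr4:102501359-102617302), NFKB2 (chr10:102394110-102402529) and RELA (chr11:65653601-65663857) the values above the chromosome median were 0.24, 0.22 and 0.15. The 3 genes that did not pass the test, RELB (chr19:45001464-45038192), REL (chr2:60881574-60931612) and NFKBIA (chr14:35401513-35404749), were 0.17, 0.17 and 0 above theirs. The part of this chromosome-wide shift in the differences of NFKBIE and TNFAIP3 was not tested.

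**Figure D2:**
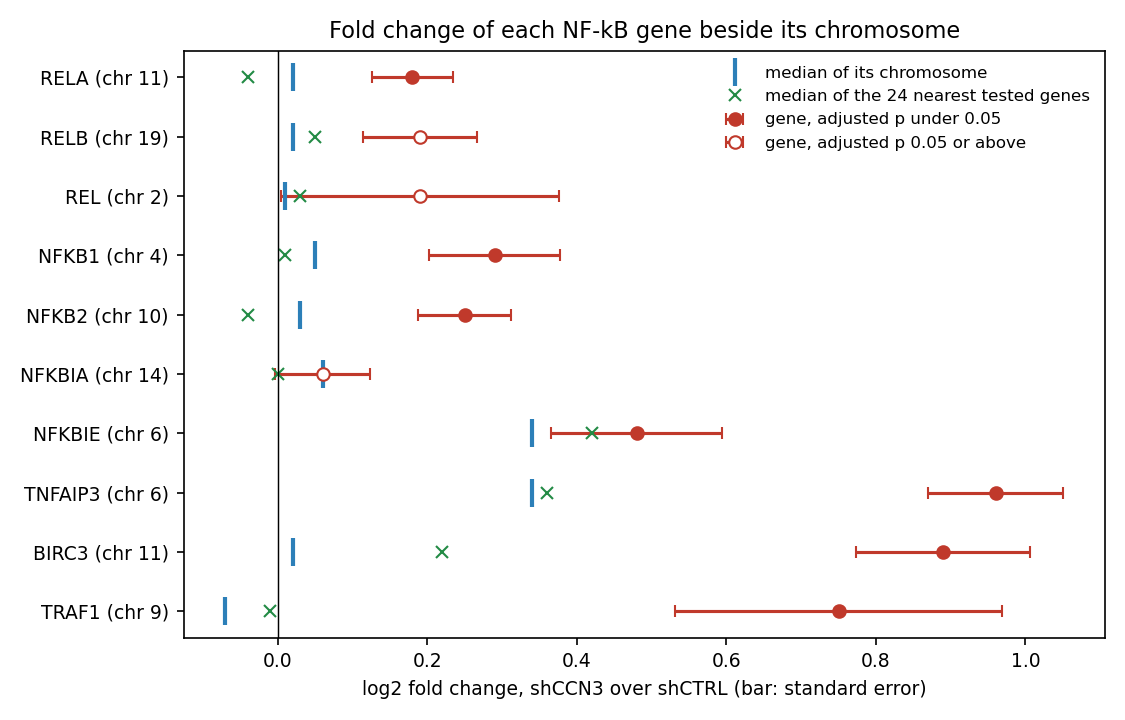
The log2 fold change (shCCN3 over shCTRL, points with standard errors, filled where the adjusted p was under 0.05) of each of the 10 genes, with the median of its chromosome (bars) and of its 24 nearest tested genes (crosses). TNFAIP3, BIRC3 and TRAF1 lie far to the right of both medians, and NFKBIE lies within its standard error of the median of its nearest genes.

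To compare levels between genes, counts were divided by the exon length of each gene (RPKM over the union of GENCODE 29 exons). In shCTRL cells RELA was highest at 19.4 ± 0.489 RPKM, followed by NFKBIA at 17.7 ± 0.152 and NFKB2 at 16.2 ± 0.984 (SD, n = 3 each). A middle group followed with RELB at 7.87, TNFAIP3 at 5.10, NFKB1 at 4.73 and NFKBIE at 3.96 RPKM, and a low group with BIRC3 at 0.711, REL at 0.681 and TRAF1 at 0.169 RPKM. Neighbours whose library values overlapped were TNFAIP3 and NFKB1, NFKB1 and NFKBIE, and BIRC3 and REL. The NF-κB mRNA of these cells was therefore mainly RELA and NFKB2 among the subunits, with little REL. In shCCN3 cells the order kept RELA first at 21.9 RPKM, then NFKB2 at 19.3 and NFKBIA at 18.4. The lowest NFKB2 value and the highest NFKBIA value were both 19.1 RPKM. TNFAIP3 stood at 9.93 ± 1.19 and RELB at 8.95 ± 0.503 RPKM, with overlapping values. BIRC3, at 1.31 ± 0.141 RPKM, no longer overlapped REL at 0.774 ± 0.226. With the longest transcript as the length, NFKB1 (7.24 RPKM) came before TNFAIP3 (5.44 RPKM) in shCTRL cells, and in shCCN3 cells RELB (11.8 RPKM) came before TNFAIP3 (10.6 RPKM) and NFKBIA (28.1 RPKM) before NFKB2 (25.3 RPKM).

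**Figure D3:**
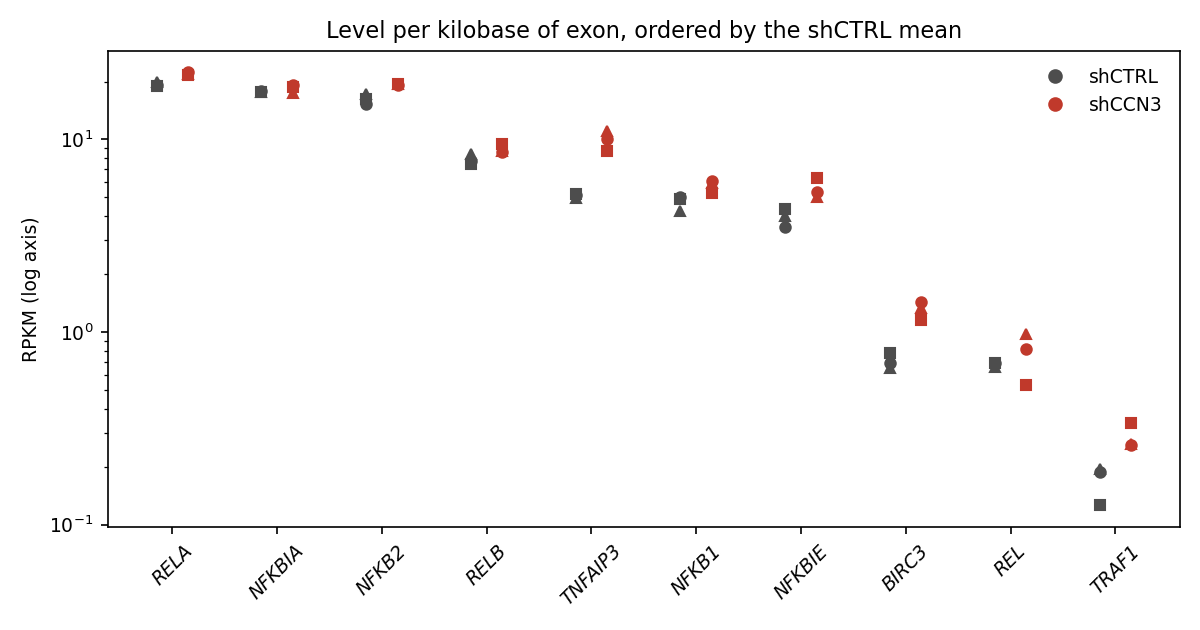
The level per kilobase of exon (RPKM, log axis) of the 10 genes in each library (circles replicate 1, squares replicate 2, triangles replicate 3), in the order of the shCTRL means. RELA, NFKBIA and NFKB2 are the most abundant, between 15.2 and 22.3 RPKM in all libraries, and TRAF1 is the least abundant.

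Upstream and downstream of the 10 genes, 71 other genes of the pathway were read from the same fit in 6 lists, of which 62 were tested. Of these 20 were higher in shCCN3 cells, 10 were lower and 32 did not pass the test. Among all tested genes 16.2% were called higher, 17.3% lower and 33.4% in either direction, and the counts of each list below are to be read beside these shares. Of the 20 that were higher, 5 lay on chromosome 6, which holds 7 tested genes of these lists, and 15 lay elsewhere. VCAM1, TNF and TNIP3 had passed the filter only because of the shCCN3 libraries. The median log2 fold change of the 62 was 0.11.

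Among 9 tested receptors 1 was higher and 3 were lower, with a median of -0.09. TLR4, the lipopolysaccharide receptor, rose from 29.9 ± 2.30 to 50.5 ± 5.53 CPM (log2 fold change 0.76, adjusted p = 0.000277, edgeR's quasi-likelihood test). TNFRSF1B, the second TNF receptor, was at 1.62, 2.36 and 1.64 CPM in shCTRL libraries and at 0.377, 0.342 and 0.313 CPM in shCCN3 libraries (log2 fold change -2.43, adjusted p = 7.03e-05, same test). TNFRSF11A, the receptor RANK, fell from 24.2 ± 0.922 to 15.2 ± 1.00 CPM (log2 fold change -0.67, adjusted p = 0.000184, same edgeR test). CD40, TLR2 and NOD2 did not pass the filter.

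The 14 adaptors and ubiquitin ligases split evenly, with 3 higher, 3 lower and a median of 0.14. TRAF5, which carries signals of TNF family receptors, rose from 14.5 ± 0.436 to 25.1 ± 0.869 CPM (log2 fold change 0.79, adjusted p = 3.6e-05, edgeR's quasi-likelihood test). RIPK1, a kinase at the TNF receptor and a chromosome 6 gene, rose from 23.6 to 36.6 CPM (log2 fold change 0.63, adjusted p = 0.000127). RBCK1, a part of the linear ubiquitin ligase complex, fell from 120 to 86.2 CPM (log2 fold change -0.47, adjusted p = 0.0011), where its 24 nearest tested genes had a median of -0.52. IRAK1, a kinase below Toll-like and interleukin-1 receptors, fell from 352 to 273 CPM (log2 fold change -0.37, adjusted p = 0.000581, all from the same edgeR test).

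The 10 genes of the kinase module moved both ways, with 2 higher, 2 lower and a median of 0.02. MAP3K14, which encodes NIK, the kinase that starts the NFKB2 and RELB branch, was at 16.1, 16.0 and 15.5 CPM in shCTRL libraries and at 28.2, 27.9 and 29.6 CPM in shCCN3 libraries. The groups were tight and far apart (log2 fold change 0.85, SE 0.067, adjusted p = 1.8e-05, edgeR's quasi-likelihood test). TAB2, an adaptor of the kinase TAK1 and a chromosome 6 gene, rose from 43.6 to 65.4 CPM (log2 fold change 0.58, adjusted p = 0.00196). IKBKB, the catalytic subunit of the canonical IκB kinase, was at 94.6, 95.4 and 95.1 CPM in shCTRL libraries and at 73.8, 71.2 and 73.7 CPM in shCCN3 libraries (log2 fold change -0.38, adjusted p = 0.000574), beside a median of -0.31 for its 24 nearest tested genes. The related kinase IKBKE fell from 11.0 to 7.95 CPM (log2 fold change -0.46, adjusted p = 0.00354, same edgeR test). The subunits RELA, NFKB1 and NFKB2 were slightly higher in cells in which IKBKB was lower and MAP3K14 higher.

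Of the 4 other IκB genes only NFKBIZ passed the test. This gene, itself a target that modifies transcription in the nucleus, rose from a mean of 8.70 to a mean of 13.6 CPM (log2 fold change 0.65, adjusted p = 0.00182, edgeR's quasi-likelihood test). Of the 9 brakes on the pathway, 3 were higher and 1 was lower, with a median of 0.11. TNIP1, which binds A20, rose from 144 ± 5.54 to 240 ± 7.33 CPM (log2 fold change 0.74, adjusted p = 1.65e-05, same test). N4BP1 (log2 fold change 0.24, adjusted p = 0.0497) and TAX1BP1, which also works with A20 (log2 fold change -0.21, adjusted p = 0.0331), passed narrowly, and both calls were lost under several alternatives. TAX1BP1 lies on chromosome 7, where the 821 tested genes had a median of -0.43, so that it was 0.21 above its chromosome. TNIP3, a relative of TNIP1 at under 1 CPM, was named after its values were seen. It had 9, 4 and 11 counts in shCTRL libraries and 27, 25 and 22 in shCCN3 libraries. Its shCTRL levels of 0.131, 0.0637 and 0.164 CPM lay around the filter's limit of 0.152 CPM, so the shCCN3 libraries carried it through the filter. It is counted among the 3 higher brakes, but its test is not read as support.

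**Figure D4:**
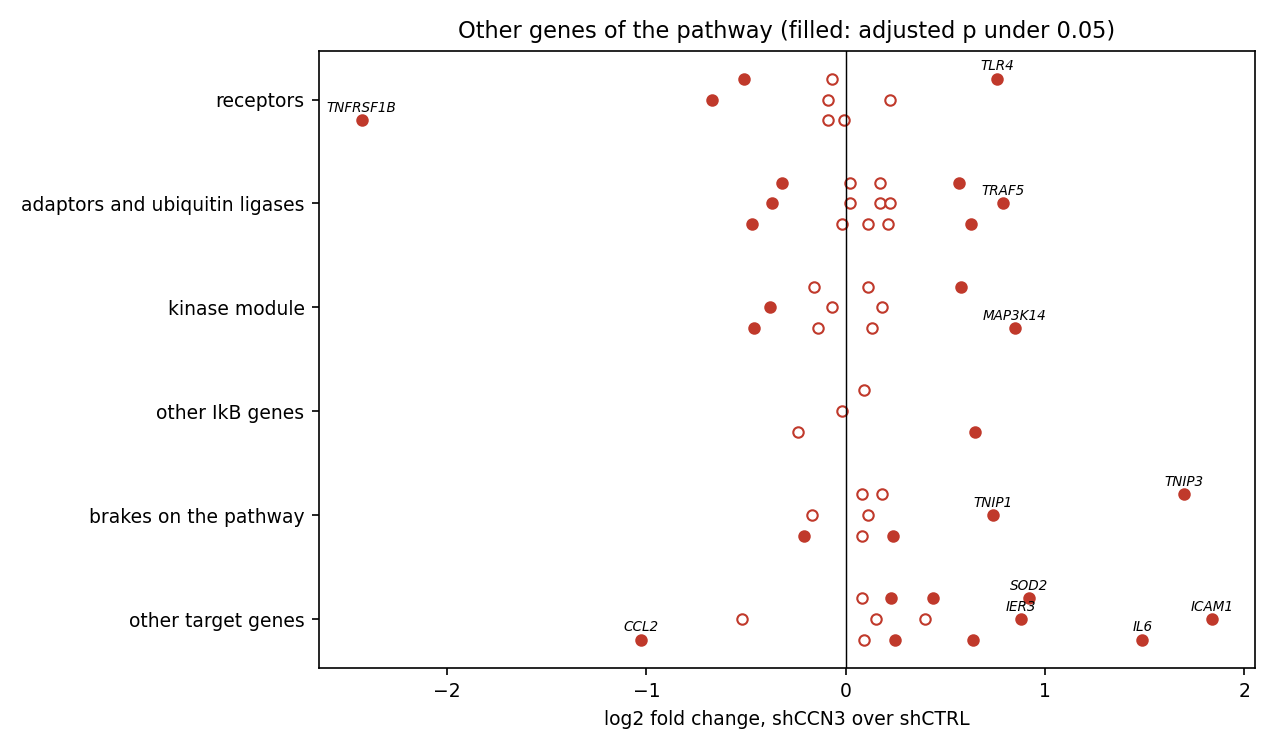
The log2 fold change (shCCN3 over shCTRL) of the tested genes of 6 lists of other pathway genes, filled where the adjusted p was under 0.05 and named where a called gene was beyond 0.7 in size. VCAM1 and TNF are not drawn because the shCTRL libraries held 0 and 2 counts of them, and called genes lie on both sides of 0 in every list except that of the other IκB genes. TNIP3 is drawn among the brakes, but the shCCN3 libraries carried it through the filter and its test is not read as support.

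Among the other NF-κB target genes, 14 passed the filter through both groups, of which 8 were higher, 1 was lower and 5 did not pass the test, with a median of 0.32. Of all tested genes 16.2% were called higher and 17.3% lower, and the list was chosen with earlier results of these data known. ICAM1, the adhesion molecule for leukocytes, was at 13.8, 14.0 and 14.0 CPM in shCTRL libraries and at 50.3, 49.0 and 50.1 CPM in shCCN3 libraries. The separation was large beside the spread (log2 fold change 1.84, SE 0.062, adjusted p = 1.13e-07, edgeR's quasi-likelihood test). IL6, the inflammatory cytokine, was at 5.50, 6.05 and 6.44 CPM in shCTRL libraries and at 16.9, 17.6 and 15.8 CPM in shCCN3 libraries (log2 fold change 1.49, SE 0.093, adjusted p = 4.55e-06, same test). CCL2, a monocyte chemokine that is also an NF-κB target, went the other way, from 1.80 ± 0.202 to 0.885 ± 0.136 CPM (log2 fold change -1.03, adjusted p = 0.00315, same edgeR test). SOD2 and IER3, named after their values were seen, rose from 102 to 194 CPM and from 99.5 to 184 CPM, and both lie on chromosome 6.

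A pair of targets passed the filter through the shCCN3 libraries alone and were likewise chosen for mention after their values were seen. VCAM1 had 0 counts in the shCTRL libraries together and 71 in the shCCN3 libraries (0.45, 0.234 and 0.422 CPM). The pooled shCCN3 level was 25.0 times a floor of 3 counts over the shCTRL group (0.0151 CPM). That figure ignores the spread of the shCCN3 libraries, so it is not a lower bound of the ratio. TNF had 2 counts against 45, and 2 counts are too few to give the size of the ratio. Since the filter kept both genes through the group where they are high, these values are a description and no test. Both levels were low, 0.377 and 0.239 CPM in shCCN3 cells, far under those of TNFAIP3 and BIRC3. CXCL1, CCL20, LTB, IL1B, BCL2A1 and MMP9 did not pass the filter. Of the 19 listed other targets with an entry in the RefSeq promoter table, 10 held the κB consensus in an upstream window (52.6%). The share was 6.28% of all genes in that table and 7.7% of the tested genes with an entry. It was 6 of 8 for the members, and both sets were chosen as known NF-κB genes.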

How the data were processed

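RNA of Hs578T cells with control shRNA or CCN3 shRNA #2 (3 samples each) was made into stranded poly(A) libraries and sequenced. The authors deposited raw read counts per gene, with no normalization. The submitters' processing notes name HISAT2 2.1.0, StringTie 2.1.3d and GRCh38. The annotation and the strand setting of the counting are not given in the sources used here, so values of overlapping genes and paralogs are uncertain. The study states independent trials for its experiments in general, without defining a trial for these libraries, so p-values measure the spread between these samples, which may be technical.

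Counts were tested with edgeR 4.0.16 in R 4.3.3 (TMM, genes with low counts filtered by group with edgeR's default, quasi-likelihood test, Benjamini-Hochberg adjustment over 17419 genes, threshold 0.05, no block). CPM are TMM-scaled, and the standard error is the log2 fold change over the square root of F. Deviations of samples with the same replicate number were weakly correlated (0.0891, -0.0256 and -0.0657), so no block was used. These values cannot show that the samples were unpaired. Exon lengths came from GENCODE 29 for 26551 gene IDs, and positions and upstream sequences from RefSeq, GRCh38.p14 (44698 IDs matched).

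The members and the gene lists were chosen with earlier results of these data known. Beside the 10 members and CCN3, the genes named are, in each list, up to 2 with the largest change in each direction at an adjusted p under 0.05 and a mean of at least 1 CPM, and any with a 2-fold change at that p and mean. Exceptions are stated. The values of 1 marker gene are not reported here. Alternatives were DESeq2's size factors, upper-quartile factors, no filter, a minimum of 10 counts per sample, DESeq2 1.42.0, limma-voom (limma 3.58.1), a replicate block, each library left out, and, for members, subtraction of the chromosome median. The test script was tested on simulated data, and its pass criterion was changed from a share of all changed genes to a share of those with at least 1 CPM after the first run missed it.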

Additional observations from a re-analysis of the deposited data

How the results depend on the processing

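The 7 calls among the 10 NF-κB genes were the same in number with other size factors, other filters, DESeq2 and limma-voom. The samples share replicate numbers, and the sources used here do not state whether samples of the same number were paired. With a replicate block 4 genes were called, NFKB2, NFKBIE, TNFAIP3 and BIRC3. In that fit the adjusted p of NFKB1 was 0.054, of RELA 0.13 and of TRAF1 0.0507 (edgeR's quasi-likelihood test). With each library left out in turn, between 3 and 7 genes were called, 3 of them without shCTRL replicate 2, and these fits have fewer samples. The number called at 2-fold was 0, and 0 to 1 in those fits, where the 1 was TNFAIP3 (log2 fold change 1.05) without shCCN3 replicate 2. REL moved to -0.01 without shCCN3 replicate 3 (range -0.01 to 0.40), and the cause was not tested. NFKBIE, TNFAIP3 and BIRC3 were called in all 13 alternatives, and RELB and NFKBIA in none. The replicate block called 4887 genes of all tested, against 5825 without it, and 25 other pathway genes against 30. Leaving out libraries gave 4181 to 7229 and 24 to 34. For the named pathway genes, a check added after seeing the data, TAX1BP1 was called in 9 and N4BP1 in 5 of 13 alternatives, and the other 16 genes named by the rule, BIRC2, SOD2 and IER3 in all 13. TNIP3, VCAM1 and TNF were described in the text by counts and levels, and no test of them is read as support. Subtracting the chromosome median moved NFKBIE from 0.48 to 0.14 and TNFAIP3 from 0.96 to 0.62. With the longest transcript as gene length, also added after seeing the data, 2 of 10 genes changed place in the order of levels in shCTRL cells and 4 in shCCN3 cells. Of the 10 genes, depth limits mainly TRAF1, with 51 to 121 counts a library.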
